A study of Homo sapiens with 10 samples.

Results

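The 8 genes described here, TCP1, CCT2, CCT3, CCT4, CCT5, CCT6A, CCT7 and CCT8, encode the subunits of the cytosolic chaperonin TRiC, also called CCT. They were chosen by their GENCODE release 29 symbols, not by their values, and all 8 were found among the 94946 entries of the count table. Total RNA was sequenced from extracellular vesicles (EVs) and whole cells of PC3, a human prostate cancer line derived from a bone metastasis. The vesicle pellets are named in the labels by spin (2.8K, 10K or 100K, without a unit), and the same names are used below, with EV for vesicles. Each pellet has 3 libraries, numbered as sets 1 to 3, and 1 library of whole PC3 cells without replicate is set against all of them. All 10 libraries come from this single line, grown in DMEM with fetal bovine serum, and the labels name no treatment or genotype that sets one group apart. RNA was taken up in Trizol and made into libraries by a SMARTer kit for low input, which reads RNA with and without a poly(A) tail. No source used here says that the sets were separate cultures, and p-values therefore reflect only how far these libraries scatter, which may be technical. The estimate of this scatter was also pooled, in part or in full, over genes.

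TRiC is a hollow double ring in which each ring holds every one of these subunits once. Newly made proteins such as actin and tubulin enter the chamber, the lid closes when the subunits bind and split ATP, and the protein folds inside. Prefoldin hands clients to the ring, and phosducin-like proteins assist it. The assembled ring needs its subunits in equal number.

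The ATP pocket is where the subunits are most alike, and the following stretches of coding strand around it show how closely the mRNAs are related. Each stretch has 48 bases, is written 5′ to 3′ from GENCODE 29 on GRCh38, and has in capitals the 12 bases that encode glycine, aspartate or glutamate, glycine and threonine in a row (any codon of each, searched in frame on the coding strand alone), which form a glycine-rich loop of the pocket.
TCP1: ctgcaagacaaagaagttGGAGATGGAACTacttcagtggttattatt
CCT2: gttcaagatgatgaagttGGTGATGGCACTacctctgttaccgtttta
CCT3: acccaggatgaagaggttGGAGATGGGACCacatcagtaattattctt
CCT4: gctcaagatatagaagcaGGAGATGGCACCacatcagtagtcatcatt
CCT5: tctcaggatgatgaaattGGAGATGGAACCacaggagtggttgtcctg
CCT6A: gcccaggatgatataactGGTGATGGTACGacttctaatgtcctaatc
CCT7: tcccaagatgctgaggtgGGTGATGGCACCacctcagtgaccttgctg
CCT8: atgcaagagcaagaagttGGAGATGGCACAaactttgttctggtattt

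The stretches within 1 exon are those of CCT2 (chr12:69587941-69587988, plus strand), CCT3 (chr1:156333548-156333595, minus strand), CCT4 (chr2:61880329-61880376, minus strand), CCT6A (chr7:56054414-56054461, plus strand) and CCT8 (chr21:29067616-29067663, minus strand). Those of TCP1 (chr6:159785989-159787781, minus strand), CCT5 (chr5:10254796-10255959, plus strand) and CCT7 (chr2:73240529-73243036, plus strand) cross an intron. The motif was found in 8 of 8 members and in 1.94% of 19702 principal coding sequences. Over the whole stretch, the 28 pairs of members shared 24 to 35 of 48 bases. A much closer relation holds between CCT6A and its pseudogenes on the same chromosome, where a short read could be misplaced. In their stretches the capitals now mark the bases that differ from CCT6A.
CCT6P1: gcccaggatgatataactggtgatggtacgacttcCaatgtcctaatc
CCT6P3: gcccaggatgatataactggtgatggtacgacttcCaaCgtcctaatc

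CCT6P1 (chr7:65754572-65754619, plus strand) carries T36C, and CCT6P3 (chr7:65065044-65065091, plus strand) carries T36C and T39C, with positions counted from 1 at the 5′ end of the stretch and the base of CCT6A given first. How the authors counted reads with several possible origins is not stated in the sources. Counts of CCT6A and of the other members with pseudogenes are therefore uncertain. The pseudogene counts given further on cover only reads that were counted. Reads left out for having several possible origins could not be measured.

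Libraries held 10288246 to 14977955 counts in 2.8K EVs, 7933251 to 10864958 in 10K EVs, 5424964 to 8083438 in 100K EVs and 28735081 in cells. Mitochondrially encoded genes took 4.81% to 12.9% of counts in 2.8K EVs, 0.826% to 1.04% in 10K EVs and 0.00544% to 0.00802% in 100K EVs, against 2.88% in cells. Set 1 of 2.8K EVs stood apart, with 12.9% of counts from these genes against 4.92% and 4.81% in sets 2 and 3. For the members, values that it moves by over 1.5 times, and calls that it decides, are therefore also given without it. Single pathway genes, pseudogenes and neighbouring genes were not checked without it. KRT8, KRT18, VIM and CD44, which PC3 cells express, summed to 1990 to 2866 CPM (counts relative to a library total of 1e+06) in 2.8K EVs, 1464 to 1764 in 10K EVs and 543 to 638 in 100K EVs, against 1590 in cells. Of 4 leukocyte markers, all were at 0 in every EV library, and of the luminal prostate markers KLK3 was at 0 throughout. With the mitochondrially encoded genes and lnc-ARF6-1, a noncoding entry that took 0.161% to 10.7% of counts, left out of the table, every member kept its call or lack of one in each comparison. The part of the other differences in what follows was not tested.

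The 8 mRNAs together took 0.284% ± 0.0322 of all counts in 2.8K EVs, 0.266% ± 0.0154 in 10K EVs and 0.210% ± 0.00727 in 100K EVs (SD, n = 3 each), against 0.385% in cells. Their summed level, in CPM scaled by the TMM factors of edgeR, was 2732 ± 143, 2767 ± 107 and 2239 ± 167 CPM in the pellets from the lowest to the highest speed and 3175 CPM in cells. The sum covers differences in both directions: in the pellet of the highest speed the mRNAs of some subunits were higher than in the pellet of the lowest and those of others lower. Behind the single values stood 379 (CCT8 in set 2 of 100K EVs) to 14588 counts (CCT5 in set 2 of 2.8K EVs), and 5947 to 32583 counts in cells. In bulk libraries, fewer vesicles of a kind and less RNA per vesicle cannot be told apart.

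**Figure D1:**
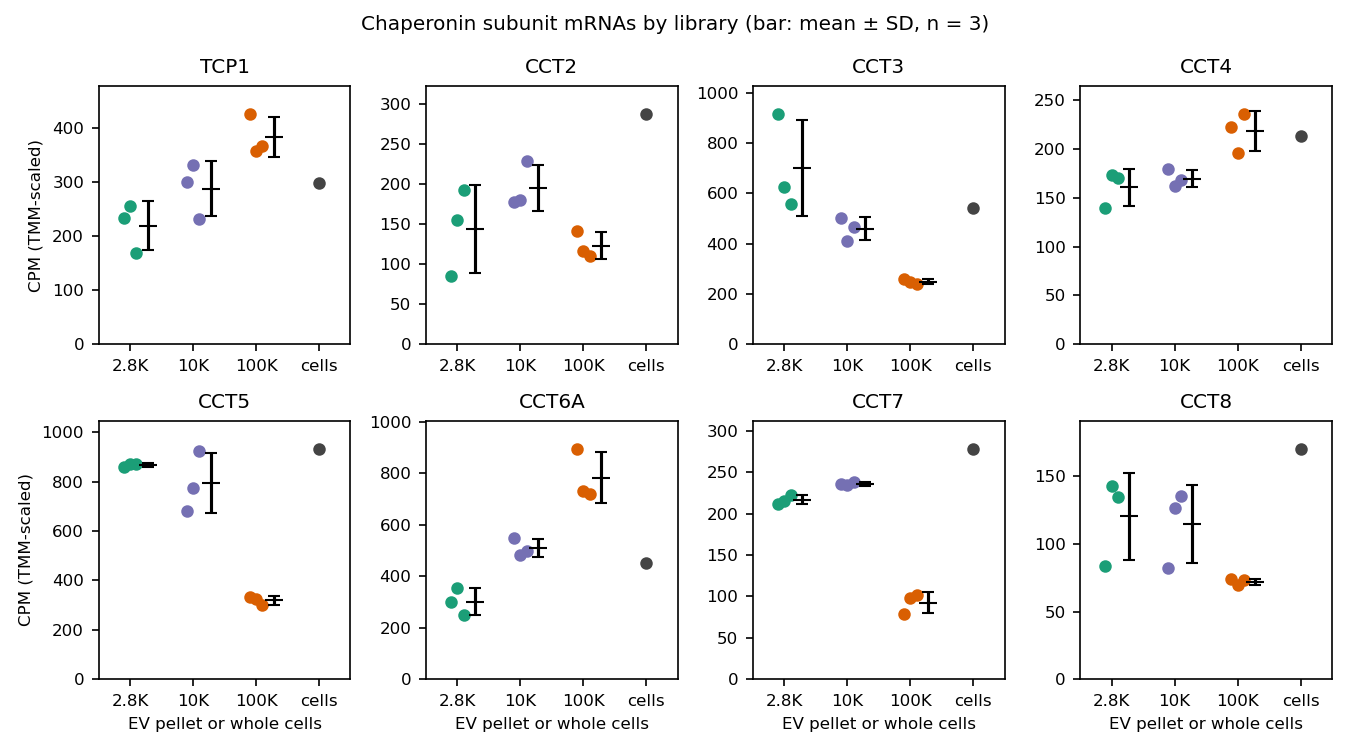
TMM-scaled CPM (y axis, from 0) of each of the 8 subunit mRNAs in the 3 libraries of 2.8K EVs, 10K EVs and 100K EVs and in the cell library (x axis), with points for libraries and bars for the mean ± SD (n = 3). By mean, CCT6A, TCP1 and CCT4 are highest in 100K EVs, while CCT2, CCT3, CCT5, CCT7 and CCT8 are lowest there. The 100K EV libraries of CCT4 lie on both sides of the cell library, and those of CCT2 overlap 2.8K EVs.

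The widest comparison was 100K EVs against 2.8K EVs, the pellets of the highest and the lowest speed. In 100K EVs, the mRNAs of 2 of the 8 subunits rose (CCT6A and TCP1) and those of 4 fell (CCT3, CCT5, CCT7 and CCT8), in edgeR's quasi-likelihood F-test with Benjamini-Hochberg adjustment over the 15525 genes tested. In the same comparison 25.8% of all genes passed, 12.0% higher and 13.8% lower. The members' log2 fold changes ran from -1.51 to 1.36 with a median of -0.51, beside a median of -0.06 over all genes tested.

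CCT6A, the zeta subunit, which together with CCT3, CCT7 and CCT8 belongs to the half-ring that binds ATP weakly, showed the steepest rise. It had 896, 729.8 and 720.2 CPM in 100K EVs, against 300.4, 355 and 249 CPM in 2.8K EVs. The groups did not overlap. The log2 fold change was 1.36 ± 0.19 (SE), a 2.56-fold rise, with an adjusted p of 3.25e-05.

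TCP1, the alpha subunit that gave the complex its older name, moved the same way with a smaller step. It had 427, 357 and 367 CPM in 100K EVs, against 234, 255 and 169 CPM in 2.8K EVs, again without overlap. Its log2 fold change was 0.79 ± 0.21 (SE), a 1.72-fold rise, with an adjusted p of 0.00858.

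The fall was steepest for CCT3, the gamma subunit, and CCT5, the epsilon subunit, whose mutation is known to cause a hereditary sensory neuropathy. CCT3 had 258, 249 and 238 CPM in 100K EVs, against 917, 627 and 556 CPM in 2.8K EVs. CCT5 had 334, 324 and 299 CPM in 100K EVs, against 859, 873 and 874 CPM in 2.8K EVs. For both genes the pellets were far apart, but the 2.8K EV libraries were nearly equal for CCT5 and uneven for CCT3, with set 1 highest.

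The log2 fold change of CCT3 was -1.51 ± 0.20 (SE; 2.86-fold lower, adjusted p 2.19e-05), and without set 1 of 2.8K EVs it was -1.27. That of CCT5 was -1.47 ± 0.18 (SE; 2.76-fold lower, adjusted p 7.92e-06) and stayed at -1.47 without that library.

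CCT7, the eta subunit, varied little between the libraries of 2.8K EVs. It had 78.2, 97.7 and 101 CPM in 100K EVs, against 212, 215 and 223 CPM in 2.8K EVs. Its log2 fold change was -1.25 ± 0.19 (SE; 2.38-fold lower), with an adjusted p of 8.62e-05. The calls of CCT3, CCT5, CCT6A, CCT7 and TCP1 held whichever library was left out.

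CCT8, the theta subunit, was a weaker case. It had 73.7, 69.6 and 73.1 CPM in 100K EVs, against 83.8, 143 and 134 CPM in 2.8K EVs. The ranges did not overlap, yet set 1 of 2.8K EVs lay close to the 100K EV libraries. Its log2 fold change was -0.76 ± 0.26 (SE; 1.69-fold lower, adjusted p 0.0360). Its adjusted p was 0.00345 without set 1 of 2.8K EVs, and the call was lost without set 2 or 3 of 2.8K EVs (0.179 and 0.120), set 2 or 3 of 10K EVs (0.0715 and 0.0651) or set 1, 2 or 3 of 100K EVs (0.0994, 0.119 and 0.106).

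CCT4, the delta subunit, and CCT2, the beta subunit, did not pass in edgeR. CCT4 had 223, 195 and 236 CPM in 100K EVs, against 139, 174 and 169.8 CPM in 2.8K EVs, with a log2 fold change of 0.42 ± 0.19 (SE) and an adjusted p of 0.125 in edgeR and 0.0484 in DESeq2. CCT2, whose mutation is known from an inherited retinal disease, had 142, 116 and 111 CPM in 100K EVs, against 85.2, 155 and 193 CPM in 2.8K EVs. The CCT2 libraries of 2.8K EVs spread on both sides of 100K EVs, and the log2 fold change was -0.25 ± 0.26 (SE; adjusted p 0.564). It was -0.52 (adjusted p 0.0762) without set 1 of 2.8K EVs and 0.061 (adjusted p 0.907) without set 3, so the sign changes with 1 library. Counting libraries alone, 3 members lay wholly higher in 100K EVs (TCP1, CCT4 and CCT6A) beside 23.8% of all genes, and 4 wholly lower (CCT3, CCT5, CCT7 and CCT8) beside 20.8%.

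**Figure D2:**
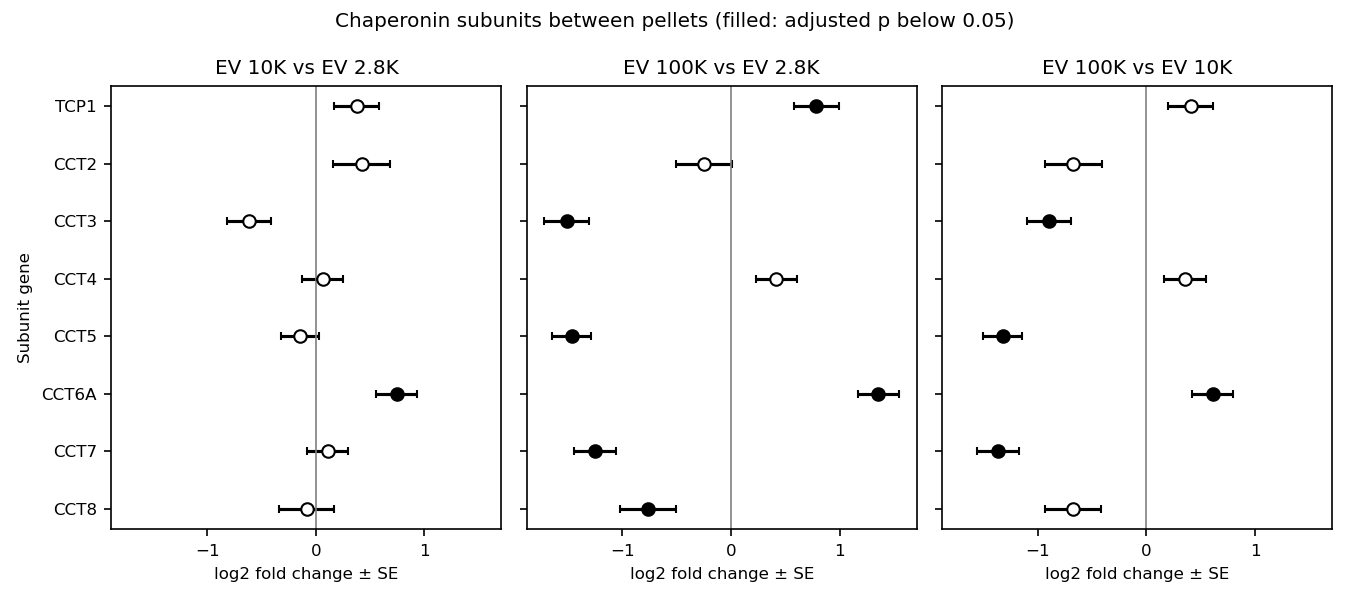
Log2 fold change ± SE (x axis) of the 8 subunit mRNAs (y axis) in the 3 comparisons between pellets, from edgeR; filled points have an adjusted p below 0.05. In 100K EVs against 2.8K EVs the values run from -1.51 for CCT3 to 1.36 for CCT6A, and in 10K EVs against 2.8K EVs only CCT6A is filled.

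The question of where along the speeds the members part was taken up by setting 100K EVs against 10K EVs, which shares the 100K EV libraries with the comparison above. CCT5, CCT7 and CCT3 fell and CCT6A rose, so 3 of 8 members were lower and 1 was higher. Over all genes tested, 10.9% passed, 7.23% lower and 3.70% higher, and these shares moved with single libraries. The 575 higher genes became 341 and 266 without set 2 or 3 of 10K EVs, 276, 367 and 284 without set 1, 2 or 3 of 100K EVs, and 1055 without set 1 of 2.8K EVs. The 1122 lower genes became 703 and 733 without set 1 or 3 of 100K EVs. The members' median log2 fold change was -0.67, beside 0.01 over all genes.

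CCT7 had 235, 234 and 239 CPM in 10K EVs, more than any 100K EV library, and a log2 fold change of -1.36 ± 0.19 (SE; 2.57-fold lower in 100K EVs, adjusted p 0.000183). CCT5 had 683, 776 and 924 CPM in 10K EVs, with a log2 fold change of -1.32 ± 0.18 (SE; 2.50-fold lower in 100K EVs, adjusted p 0.000107). For these genes, the step between 10K EVs and 100K EVs was about as large as the whole difference between 2.8K EVs and 100K EVs.

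CCT3 had 503, 410.5 and 467 CPM in 10K EVs and was 1.86-fold lower in 100K EVs, with a log2 fold change of -0.90 ± 0.20 (SE; adjusted p 0.00669). CCT6A had 549, 481 and 498 CPM in 10K EVs and was 1.53-fold higher in 100K EVs, with a log2 fold change of 0.61 ± 0.19 (SE; adjusted p 0.0434). The CCT6A libraries did not overlap between these pellets either. Its call was close to the threshold and was lost without set 1, 2 or 3 of 10K EVs (adjusted p 0.0649, 0.161 and 0.158) or set 1, 2 or 3 of 100K EVs (0.221, 0.0858 and 0.0895). The calls of CCT3, CCT5 and CCT7 held whichever library was left out.

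The other members did not pass in this comparison. CCT2 had 177, 179.8 and 229 CPM in 10K EVs and a log2 fold change of -0.67 ± 0.26 (SE; adjusted p 0.119). CCT8 had 82.0, 127 and 135 CPM in 10K EVs and a log2 fold change of -0.68 ± 0.26 (SE; adjusted p 0.109). Without set 1 of 2.8K EVs, which enters the fit but is in neither of these pellets, both passed, at adjusted p 0.0180 for CCT2 and 0.0348 for CCT8, so that 5 of 8 members were lower.

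TCP1, with 299, 331 and 232 CPM in 10K EVs, had a log2 fold change of 0.41 ± 0.21 (SE; adjusted p 0.253). CCT4, with 179, 162 and 168 CPM in 10K EVs, had one of 0.35 ± 0.19 (SE; adjusted p 0.298). By libraries alone, 3 members lay wholly higher in 100K EVs than in 10K EVs (TCP1, CCT4 and CCT6A), beside 19.2% of all genes, and 5 wholly lower, beside 16.7%.

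In 10K EVs against 2.8K EVs, 1 of 8 members rose. This was CCT6A, with 549, 481 and 498 CPM in 10K EVs, against 300.4, 355 and 249 CPM in 2.8K EVs. Its log2 fold change was 0.74 ± 0.19 (SE; 1.68-fold higher, adjusted p 0.0225). The call was lost without set 3 of 2.8K EVs (0.0565) or set 1 of 10K EVs (0.0911). Over all genes, 6.38% passed, 4.15% higher and 2.22% lower, and 1 of 8 members is too few to set the subunits apart from this share. The 645 higher genes became 383 without set 1 of 10K EVs, and the 345 lower genes became 174, 196 and 167 without set 1, 2 or 3 of 10K EVs.

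In edgeR, 0 members were lower in 10K EVs than in 2.8K EVs, and 2 of 8 had an unadjusted p below 0.05 in either direction. CCT3 came nearest, with a log2 fold change of -0.62 ± 0.20 (SE) and an adjusted p of 0.0789 in edgeR and 0.0328 in DESeq2. Without set 1 of 2.8K EVs its log2 fold change was -0.38, and without set 3 it passed in edgeR at 0.0463. The log2 fold changes of CCT5 (-0.14 ± 0.18, SE), CCT7 (0.11 ± 0.19, SE), CCT4 (0.06 ± 0.19, SE) and CCT8 (-0.08 ± 0.25, SE) were smaller than their errors. Those of TCP1 (0.38 ± 0.21, SE) and CCT2 (0.42 ± 0.26, SE) had adjusted p-values of 0.330 and 0.402. Without set 1 of 2.8K EVs the log2 fold change was 0.15 for CCT2, -0.29 for CCT8 and -0.034 for CCT4. Without set 3 it was 0.73 for CCT2, and for CCT8 it was 0.12 and 0.048 without set 2 or 3 and 0.11 without set 1 of 10K EVs. None of these values passed. By libraries alone, 2 members lay wholly higher in 10K EVs (CCT6A and CCT7), beside 11.7% of all genes, and 1 wholly lower (CCT3), beside 9.71%.

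A joint test for any difference among the 3 pellets called 5 of 8 members, CCT3, CCT5, CCT6A, CCT7 and TCP1, and 23.3% of all genes. The adjusted p-values of CCT3, CCT5, CCT6A and CCT7 ran from 1.94e-05 (CCT5) to 0.000133 (CCT6A). For TCP1 the adjusted p was 0.0270, and the call was lost without set 3 of 2.8K EVs (0.0638) or set 1, 2 or 3 of 100K EVs (0.116, 0.0558 and 0.0651). Without set 1 of 2.8K EVs the joint test called 7 members, adding CCT2 (0.0294) and CCT8 (0.00889).

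Against whole cells, most subunit mRNAs had a lower relative level in 100K EVs. CCT2, CCT3, CCT5, CCT7 and CCT8 fell, 5 of 8 members, and 0 rose, in edgeR's quasi-likelihood test fitted on all 10 libraries. In this comparison 10.0% of 22370 genes passed, 5.46% lower and 4.59% higher. The cell library has no replicate and is assumed to vary like the EV groups. For a typical gene, the spread used against cells is the trend over all genes, not that of the gene's own libraries.

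CCT7 averaged 92.4 ± 12.4 CPM in 100K EVs (SD, n = 3) and 279 CPM in cells, a log2 fold change of -1.60 ± 0.31 (SE; 3.02-fold lower, adjusted p 1.33e-05). CCT5 averaged 319 ± 17.7 CPM in 100K EVs (SD, n = 3) and 935 CPM in cells, a log2 fold change of -1.55 ± 0.28 (SE; 2.93-fold lower, adjusted p 1.42e-06). Every 100K EV library of both genes lay below the cell library.

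CCT8 averaged 72.1 ± 2.25 CPM in 100K EVs (SD, n = 3) and 171 CPM in cells (log2 fold change -1.24 ± 0.35, SE; adjusted p 0.00568). CCT2 averaged 123 ± 16.7 CPM in 100K EVs (SD, n = 3) and 288 CPM in cells (-1.23 ± 0.32, SE; adjusted p 0.00252). CCT3 averaged 248 ± 9.96 CPM in 100K EVs (SD, n = 3) and 541 CPM in cells (-1.12 ± 0.29, SE; adjusted p 0.00213). Leaving out any EV library kept these 5 calls.

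CCT6A had the highest log2 fold change of the members against cells, with 782 ± 99.0 CPM in 100K EVs (SD, n = 3) and 449.8 CPM in cells. The log2 fold change was 0.80 ± 0.32 (SE) and did not pass in edgeR (adjusted p 0.110), but did without set 1 of 2.8K EVs (0.0199) and in DESeq2 (0.00314). TCP1 averaged 384 ± 37.5 CPM in 100K EVs (SD, n = 3) and 298 CPM in cells, with a log2 fold change of 0.36 ± 0.33 (SE; adjusted p 0.776). CCT4 averaged 218 ± 20.7 CPM in 100K EVs (SD, n = 3) and 213 CPM in cells, with a log2 fold change of 0.03 ± 0.34 (SE), which leaves room for a difference in either direction.

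The pellets of the lower speeds were set against the same single cell library. In edgeR, 0 of 8 members passed for 2.8K EVs, beside 2.23% of all genes (1.54% higher and 0.693% lower), and 1 had an unadjusted p below 0.05. That member was CCT2, at 144 ± 54.5 CPM in 2.8K EVs (SD, n = 3) and 288 CPM in cells. Its fitted level in 2.8K EVs was 0.499 times that in cells (SE 0.33 on the log2 scale; adjusted p 0.0795), and it passed without set 3 of 2.8K EVs (0.00880) but had 0.225 without set 1. The log2 fold changes of the other members ran from -0.58 for CCT6A to 0.37 for CCT3, which had 0.13 without set 1 of 2.8K EVs. CCT8 had -0.50, and -0.30 without that library. DESeq2 also called 0 of 8 members.

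For 10K EVs, 0 of 8 members passed in edgeR, beside 4.43% of all genes (2.82% higher and 1.60% lower), 0 had an unadjusted p below 0.05, and DESeq2 called 0. The members' log2 fold changes against cells ran from -0.57 for CCT8 to 0.18 for CCT6A, with errors of 0.30 to 0.36. Differences within such errors were not detectable.

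**Figure D3:**
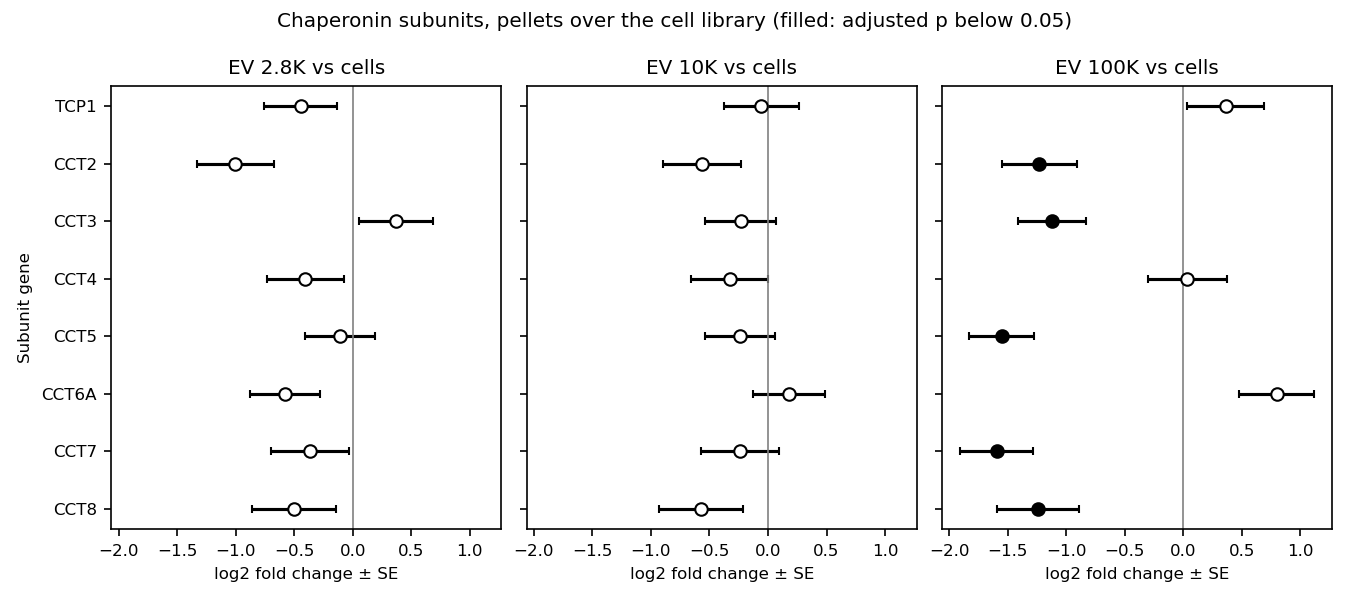
Log2 fold change ± SE (x axis) of the 8 subunit mRNAs (y axis) in each pellet against the 1 cell library, from edgeR; filled points have an adjusted p below 0.05. The 5 filled points, CCT2, CCT3, CCT5, CCT7 and CCT8, are all in 100K EVs and all below 0.

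Levels of different subunits can be compared only per length, and were expressed as CPM per kilobase of the exons of each gene in GENCODE 29. On this scale CCT6A had the highest mean in 100K EVs, and CCT3 or CCT5 in the other pellets. CCT3 led in 2.8K EVs at 174 ± 47.5 CPM per kilobase, followed by CCT5 at 149 ± 1.47 (SD, n = 3 each), with ranges that overlapped. This order rests on set 1 of 2.8K EVs, without which, as an alternative chosen after seeing the data, CCT3 averaged 147 and CCT5 149.6 CPM per kilobase. CCT5 led in 10K EVs at 136 ± 20.8 CPM per kilobase, followed by CCT6A at 131 ± 9.15 and CCT3 at 115 ± 11.6 (SD, n = 3 each), and neighbours in this order overlapped.

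In 100K EVs, CCT6A led at 200.5 ± 25.4 CPM per kilobase, clear of every other subunit. TCP1 at 77.8 ± 7.61 and CCT4 at 77.1 ± 7.30 came next with overlapping ranges, then CCT3 at 61.8 ± 2.48 and CCT5 at 54.6 ± 3.03 CPM per kilobase, whose libraries were apart. CCT2 at 28.5 ± 3.87, CCT7 at 25.7 ± 3.45 and CCT8 at 21.6 ± 0.674 CPM per kilobase closed the order, each overlapping its neighbour (SD, n = 3 each). In cells CCT5 led at 160.1 CPM per kilobase and CCT8 was last at 51.1.

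The order depends on the length used. Per kilobase of the principal mRNA, also chosen after seeing the data, CCT3 was above CCT5 in all 3 libraries of 2.8K EVs, at 426, 291.5 and 259 against 234, 238 and 238 CPM per kilobase. In 100K EVs CCT6A still led at 288 and TCP1 still followed at 154, but CCT3 at 116 CPM per kilobase stood above CCT4 at 86.5. In cells CCT5 still led and CCT4 was last at 84.4, below CCT8 at 85.1 CPM per kilobase.

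As a share of the 8 subunits summed per length, CCT6A made up 12.2% ± 1.69 in 2.8K EVs, 20.3% ± 1.57 in 10K EVs and 36.5% ± 1.98 in 100K EVs (SD, n = 3 each), against 15.6% in cells. CCT5 made up 23.6% ± 1.43, 21.1% ± 2.68 and 9.99% ± 0.575 in the pellets in the same order, against 21.6% in cells. CCT3 made up 27.5% ± 6.50 (23.7% without set 1 of 2.8K EVs), 17.8% ± 1.70 and 11.3% ± 0.524, against 18.2% in cells. The largest share was 3.13 times the smallest in cells and 3.50 to 11.6 times in the EV libraries, with the highest ratio in set 1 of 2.8K EVs.

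The per-length ratio of CCT6A to CCT5 was 0.524, 0.609 and 0.426 in the 2.8K EV libraries, 1.20, 0.927 and 0.807 in 10K EVs, and 4.02, 3.37 and 3.60 in 100K EVs, against 0.720 in cells. The ranges of the pellets were apart, and the cell library fell between 2.8K EVs and 10K EVs. The ratio of CCT6A to CCT7 was 10.5, 6.88 and 6.54 in 100K EVs and between 1.03 and 2.15 in the other EV libraries, against 1.48 in cells. Per kilobase of the principal mRNA it was 8.07, 5.27 and 5.01 in 100K EVs and 0.785 to 1.64 in the other EV libraries, against 1.14 in cells. The ratio of TCP1 to CCT3 was 1.35, 1.17 and 1.26 in 100K EVs and at most 0.658 in any other EV library, against 0.450 in cells. These ratios describe values already tested above and carry no further test.

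**Figure D4:**
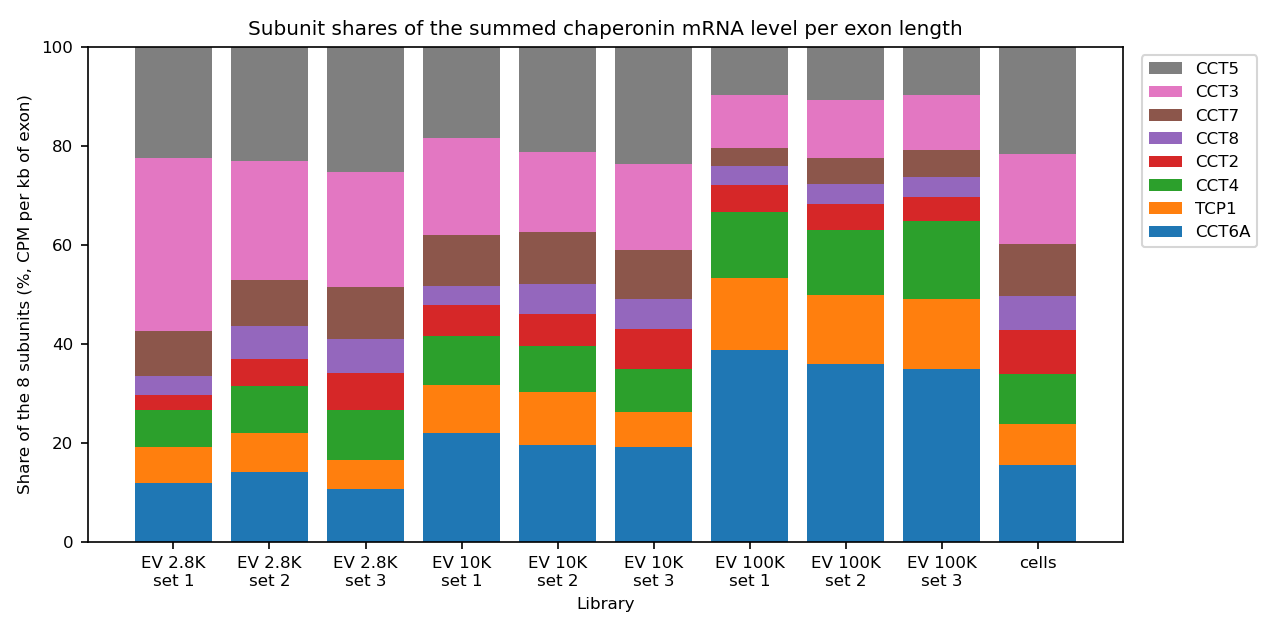
Share of each subunit in the summed CPM per kilobase of exon of the 8 subunits (y axis, %), stacked for each of the 10 libraries (x axis). The CCT6A segment at the bottom averages 12.2% in 2.8K EVs, 20.3% in 10K EVs and 36.5% in 100K EVs, against 15.6% in cells.

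The profiles over the 9 EV libraries were also compared in shape, as the root mean square difference of log2(CPM + 1) after centring each gene on its mean. The closest pair of members was CCT5 and CCT7 at 0.197, followed by TCP1 and CCT6A at 0.274, TCP1 and CCT4 at 0.291 and CCT3 and CCT5 at 0.307. The farthest were CCT5 and CCT6A at 1.19 and CCT3 and CCT6A at 1.18. CCT2 and CCT8 were 0.332 apart. These distances are a description of the same libraries as the tests.

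Among 9415 genes with a mean of at least 10 CPM, the most alike to CCT6A were ZNF354B, a zinc finger gene, BIRC5, which encodes the apoptosis inhibitor survivin, and DCTD, a deoxycytidylate deaminase, at distances of 0.0788 to 0.121. BIRC5 averaged 421 CPM in 2.8K EVs, 641 in 10K EVs and 953 in 100K EVs, against 320.1 in cells. The most alike to CCT7 were PDLIM1, CAPZA1 and ARPC3, at 0.123 to 0.129. ARPC3 averaged 189 CPM in 2.8K EVs, 213 in 10K EVs and 72.5 in 100K EVs, against 137 in cells.

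VDAC2, a channel of the outer mitochondrial membrane, AL450405.1 and PQBP1 were nearest to CCT5, at 0.0937 to 0.108. LIG1, the replicative DNA ligase, PSMD2, a proteasome subunit, and SDF4 were nearest to CCT3, at 0.0591 to 0.0910. CCT8 was nearest to ALAS1, TBC1D20 and SEC24C (0.118 to 0.142), and CCT2 to CHKA, BBX and NCBP2-AS2 (0.128 to 0.181). The nearest 3 genes of TCP1 included C8orf33 and METTL2B, at 0.122 and 0.131, and those of CCT4 included AFG3L2 and NDUFS1, at 0.104 and 0.109.

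The other genes of the folding pathway were counted from 8 lists with 48 genes: helpers, clients and relatives of the chaperonin. In 100K EVs against 2.8K EVs, 6 of 47 tested entries rose and 20 fell, beside 12.0% and 13.8% of all genes, with a median log2 fold change of -0.61. In 100K EVs against 10K EVs, 1 rose and 15 fell, beside 3.70% and 7.23%, and in 10K EVs against 2.8K EVs 2 rose and 1 fell, beside 4.15% and 2.22%. Against cells, 2 rose and 11 fell in 100K EVs (beside 4.59% and 5.46%), 4 rose and 1 fell in 10K EVs (beside 2.82% and 1.60%), and 3 rose and 1 fell in 2.8K EVs (beside 1.54% and 0.693%). The lists were known to hold genes that differ in these libraries, so their counts are a description.

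Prefoldin, which delivers clients to TRiC, had 1 of 6 subunits higher and 3 lower in 100K EVs than in 2.8K EVs. PFDN2 averaged 81.7 ± 19.4 CPM in 100K EVs and 293 ± 89.7 CPM in 2.8K EVs (SD, n = 3 each), a log2 fold change of -1.86 ± 0.25 (SE; adjusted p 1.91e-05). PFDN6 (-2.11 ± 0.53, SE) and PFDN4 (-1.42 ± 0.30, SE) fell as well. The member that rose was PFDN5, at 0.60 ± 0.19 (SE; adjusted p 0.0232), which is named for completeness after its values were seen. Against cells, PFDN5 rose in all 3 pellets, with 489 ± 51.0 CPM in 100K EVs (SD, n = 3) and 127 CPM in cells.

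The phosducin-like cochaperones split in the same comparison of 100K EVs with 2.8K EVs. PDCL3, which assists TRiC with actin and tubulin, averaged 203 ± 51.2 CPM in 100K EVs and 56.2 ± 28.4 CPM in 2.8K EVs (SD, n = 3 each), a log2 fold change of 1.83 ± 0.35 (SE; adjusted p 0.000624). TXNDC9 averaged 14.8 ± 1.76 CPM in 100K EVs and 51.1 ± 5.21 CPM in 2.8K EVs (SD, n = 3 each), a log2 fold change of -1.80 ± 0.33 (SE; adjusted p 0.000419). PDCL had 0.22 ± 0.40 (SE) and did not pass, and the fourth member of the list was too low to be tested. PDCL3 was also higher in 100K EVs than in cells, where it had 23.2 CPM, by 3.12 ± 0.45 on the log2 scale (SE; adjusted p 3.96e-10).

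Of the tubulin cofactors, which build tubulin pairs from chains that leave the chaperonin, 1 of 6 entries rose and 2 fell in 100K EVs against 2.8K EVs. TBCD averaged 164 ± 15.3 CPM in 100K EVs and 62.8 ± 8.25 CPM in 2.8K EVs (SD, n = 3 each; log2 fold change 1.36 ± 0.23, SE). TBCA (-1.19 ± 0.26, SE) and TBCB (-1.31 ± 0.31, SE) fell. Of 5 Hsp70 partners 0 rose and 2 fell, HSPA8 with 451 ± 56.0 CPM in 100K EVs and 1624 ± 97.8 CPM in 2.8K EVs (SD, n = 3 each; log2 fold change -1.87 ± 0.19, SE), and HSPH1 (-0.86 ± 0.20, SE).

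Among 19 clients, 2 rose and 10 fell in 100K EVs against 2.8K EVs. ACTB, the beta-actin gene, averaged 805 ± 169 CPM in 100K EVs and 4843 ± 1239 CPM in 2.8K EVs (SD, n = 3 each), with a log2 fold change of -2.61 ± 0.22 (SE; adjusted p 1.66e-07). CDC20, an activator of the anaphase-promoting complex, had -2.62 ± 0.31 (SE), and GNB2, a G protein beta subunit, had -2.50 ± 0.24 (SE). The clients that rose, TUBA1C (0.97 ± 0.18, SE) and TUBA1B (0.78 ± 0.18, SE), are named after their values were seen. Both encode alpha-tubulins, but TUBA1A, the other alpha-tubulin gene of the list, fell (-1.92 ± 0.36, SE; adjusted p 0.000530). TUBB, TUBB2A, TUBB4B, TUBB6 and TUBG1 fell as well, with log2 fold changes of -2.54 to -1.25. TUBA1C and TUBA1B also rose in 10K EVs against 2.8K EVs, where TUBA1B averaged 1939 ± 182 CPM in 10K EVs and 1130 ± 98.1 CPM in 2.8K EVs (SD, n = 3 each).

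Of the related chaperonins, MKKS, a chaperonin-like protein linked to Bardet-Biedl syndrome, rose in 100K EVs against 2.8K EVs (1.38 ± 0.42, SE; adjusted p 0.0212), 1 of 4 paralogs tested. HSPD1, the mitochondrial chaperonin Hsp60, fell (-0.83 ± 0.18, SE; adjusted p 0.00197). Its partner HSPE1 had 0.29 ± 0.78 (SE) and did not pass. HSPE1 was low and uneven, at 10.9 ± 12.0 CPM in 2.8K EVs and 13.5 ± 5.17 CPM in 100K EVs (SD). Its value therefore cannot show whether the partners differ. HSF1, the heat shock factor that is known to bind TRiC, fell (-1.18 ± 0.21, SE; adjusted p 0.000425), 1 of 2 factors tested.

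**Figure D5:**
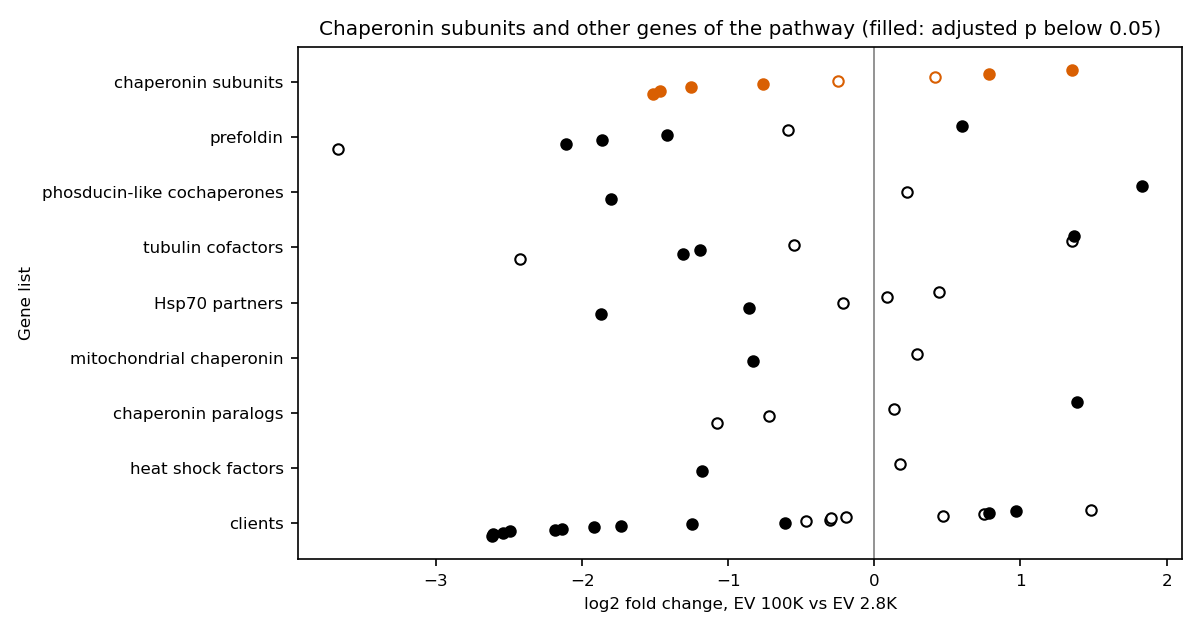
Log2 fold change of 100K EVs against 2.8K EVs (x axis) for the 8 subunits (orange) and the 47 tested entries of 8 lists of the folding pathway (black), by list (y axis); filled points have an adjusted p below 0.05. Of the pathway entries, 6 are filled above 0 and 20 below it.

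Neighbours and copies in the genome bear on how firmly single members can be read. Of 13 pseudogenes of the members in the table, 4 had no count in any library and 9 had some. Of the counts of CCT6A and its pseudogenes together, the pseudogenes had 2.08% to 5.26% in 2.8K EVs, 2.67% to 3.57% in 10K EVs and 3.77% to 5.25% in 100K EVs, against 1.63% in cells. CCT6P3 had 15.9, 13.6 and 19.1 CPM in 100K EVs, against 4.90, 2.99 and 0 CPM in 2.8K EVs, with a log2 fold change of 2.59 ± 1.02 (SE; adjusted p 0.0707). CCT6P1 had 17.8, 16.7 and 18.8 CPM in 100K EVs, against 3.83, 3.65 and 11.9 CPM in 2.8K EVs, with one of 1.43 ± 0.71 (SE; adjusted p 0.160). Neither pseudogene passed. The largest share of the 50-base windows of the CCT6A mRNA that also occur in 1 of its pseudogenes was 4.01%, for CCT6P3.

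For CCT8, whose pseudogene CCT8P1 shares 8.59% of the 50-base windows of its principal mRNA, the pseudogene share of counts ranged from 0.273% to 7.79% over the libraries. For TCP1 the range was 0.228% to 3.22%, and for CCT5 it was 0.130% to 1.10%. CCT2 and CCT3 have no pseudogene by the naming rule used. Adding the pseudogene counts to each member changed no call. This sum holds only counted reads, so it cannot show the effect of reads left out for having several possible origins.

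TCP1 on chromosome 6 (159778498 to 159789749, minus strand) overlaps the end of ACAT2 on the opposite strand by 558 bases and hosts SNORA20 and SNORA29, small nucleolar RNAs that guide pseudouridylation. ACAT2, a cytosolic thiolase of lipid synthesis, had 11.5, 28.8 and 28.4 CPM in 100K EVs, against 68.5, 109 and 126 CPM in 2.8K EVs. It fell by 2.17 on the log2 scale (SE 0.34, adjusted p 9.48e-05), the opposite direction to TCP1. SNORA20 had 0, 0.551 and 0.160 CPM in 100K EVs, against 21.0, 4.43 and 5.48 CPM in 2.8K EVs (adjusted p 0.0168 in edgeR). It was highest in set 1 of 2.8K EVs and was not tested without that library. SNORA29 had no count in any library. The strand setting of the counting is not given, so reads of the overlap cannot be assigned with certainty. The noncoding entries lnc-TCP1-4, lnc-TCP1-3 and lnc-TCP1-2, described under other observations, rose in 100K EVs against 2.8K EVs, as TCP1 did. Whether they share reads with TCP1 was not tested.

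CCT6A on chromosome 7 (56051630 to 56063989, plus strand) hosts SNORA22B and SNORA15, with at most 36 counts in any library, against 2901 to 15677 for CCT6A itself. COMMD1, with 71 to 679 counts, overlaps CCT4 by 81 bases on the opposite strand, and TSACC and AC107081.2, which lie opposite CCT3 and CCT4, had at most 34 counts in any library. How many COMMD1 reads lie in the overlap was not tested.

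In build, the members differ more outside the coding part than within it. Coding sequences have 1596 to 1671 bases, and principal mRNAs 1916 (CCT7) to 3675 bases (CCT5). The 3′ untranslated part has 904 bases in CCT6A, 547 in TCP1 and 603 in CCT4, the members with positive log2 fold changes in 100K EVs against 2.8K EVs. It has 231 bases in CCT3, 143 in CCT7, 151 in CCT8, 245 in CCT2 and 1629 in CCT5, the members with negative ones. CCT5 thus breaks an order by length. CCT4 and CCT2 did not pass in this comparison in edgeR, and the sign of CCT2 turned with a single library. The GC content of the mRNA is 51.2% in CCT3 and 51.8% in CCT7, and 43.1% to 44.7% in the other members. Spearman correlations were taken across 11989 genes with an annotated coding sequence, which are not independent replicates. The log2 fold change of 100K EVs against 2.8K EVs had 0.249 with the length of the 3′ untranslated part. It had 0.240 with the length of the whole mRNA, 0.0798 with that of the coding sequence and -0.193 with the GC content of the mRNA. The values differed between comparisons. In 100K EVs against 10K EVs they were, in the same order of features, 0.277, 0.349, 0.227 and -0.121. In 10K EVs against 2.8K EVs they were 0.0768, -0.0187, -0.137 and -0.158. Whether any of these features bears on the members' differences was not tested.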

How the data were processed

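The authors deposited whole-number counts per gene, not normalized, for 10 libraries. Per the submitters' processing notes, the tools were STAR 2.6.1d, featureCounts 1.6.3, cutadapt 2.7 and bcl2fastq 2.19.1.403, with GRCh38. Strand setting and handling of multi-mapping reads: not given in the sources used here. Groups and set numbers come from the sample titles. Symbols, lengths and sequences were matched by identifier to GENCODE 29.

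Tests used edgeR 4.0.16 in R 4.3.3 on the deposited counts: filterByExpr (minimum count 10), TMM, the robust quasi-likelihood F-test, and Benjamini-Hochberg adjustment over every gene tested at a threshold of 0.05. Pellets were compared on the 9 EV libraries (15525 genes, 6 residual degrees of freedom) and with cells on all 10 (22370 genes). The median prior degrees of freedom were 11.7 in the fit on the EV libraries and infinite in the fit with cells. Errors against cells thus rest, for a typical gene, on the trend of spread over all genes. Log2 fold changes are unshrunk, CPM is scaled by TMM over all 10 libraries, and SE is the fold change divided by the root of F. Total counts of 5424964 to 28735081 per library bound the precision; reads are not independent molecules. The alternatives were DESeq2 1.42.0, limma 3.58.1 (voom), other scalings, filters and fits, a set number term, and each library left out. The script was tested on simulated data. Figures used matplotlib 3.10.9 under Python 3.11.15.

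The members, pathway lists and tests were chosen with earlier results of these data known. Named pathway genes are the up to 3 that passed with the lowest p in each list and comparison, and named alike genes the nearest 3 per member; some of these are not reported here.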

Additional observations from a re-analysis of the deposited data

How the results depend on the processing

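Of the single-member results under alternatives, 791 kept their direction and side of the threshold, 16 gained the threshold, 21 lost it and 12 changed sign, none of the 12 past the threshold in edgeR or under the alternative. In 10K EVs against 2.8K EVs these were CCT4 (-0.034 without set 1 of 2.8K EVs) and CCT8 (0.12 and 0.048 without set 2 or 3 of 2.8K EVs, 0.11 without set 1 of 10K EVs), and in 100K EVs against 2.8K EVs CCT2 (0.061 without set 3 of 2.8K EVs). Against cells they were CCT5 in 2.8K EVs (0.0072 with DESeq2 and with its size factors), TCP1 in 10K EVs (0.039 with each of these, 0.012 with upper-quartile scaling, 0.080 without set 3 of 10K EVs) and CCT4 in 100K EVs (-0.025 without set 3 of 100K EVs). The other ends of the leave-out ranges were 0.18 for CCT4 and -0.29 for CCT8 in 10K EVs against 2.8K EVs, -0.52 for CCT2, and -0.18 for TCP1. For 10K EVs against 2.8K EVs, 1 member was lower with DESeq2 and with the replicate block (the set number as a term in the fit), and 0 were higher with voom and with a fit on the 6 libraries compared. For 100K EVs against 10K EVs, 0 were higher without a filter on low counts, and 5 were lower with voom and with the fit on 6 libraries. For 100K EVs against cells, 1 was higher with DESeq2, with DESeq2 size factors or upper-quartile scaling in edgeR, and with a fit on that pellet and the cells alone. The call of CCT8 in 100K EVs against 2.8K EVs was lost with DESeq2 size factors (0.0507), upper-quartile scaling (0.0603) and the fit on 6 libraries (0.0516). The causes were not tested.

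Leaving out each EV library gave 2 to 2 members higher and 3 to 4 lower in 100K EVs against 2.8K EVs, 0 to 1 higher and 3 to 5 lower against 10K EVs, and 0 to 1 higher and 5 to 5 lower against cells. It gave 0 to 1 higher and 0 to 1 lower in 10K EVs against 2.8K EVs, 0 to 0 higher and 0 to 1 lower in 2.8K EVs against cells, 0 to 0 in both directions in 10K EVs against cells, and 4 to 7 in the joint test.

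Over all genes, 10K EVs against 2.8K EVs gave 645 higher and 345 lower in edgeR, 997 and 638 with DESeq2, 289 and 188 with voom, 362 and 199 with 6 libraries, and 531 lower with all 10. 100K EVs against 10K EVs gave 575 higher, against 923 with DESeq2, 1324 with voom and 1199 with 6 libraries. 2.8K EVs against cells gave 344 higher and 155 lower, against 529 higher with DESeq2 and 128 and 43 with the pellet and cells alone. 100K EVs against cells gave 1026 and 1221, against 2669 and 2626 with the pellet and cells alone. Leaving out 1 EV library gave 383 to 812 higher and 167 to 368 lower genes in 10K EVs against 2.8K EVs, and 266 to 1055 higher and 703 to 1494 lower in 100K EVs against 10K EVs. For 2.8K EVs against cells, 253 and 310 were lower without set 1 or 3 of 2.8K EVs, and for 10K EVs against cells, 622 were lower without set 1 of 2.8K EVs, against 359 with it. In voom, the median log2 fold change of all genes in 100K EVs against 2.8K EVs was 0.24, beside -0.06 in edgeR.

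The replicate block changed no other member count. Deviations of same-numbered libraries had correlations of -0.00907 to 0.0481 over 9 pairs, and those of differently numbered ones -0.0363 to 0.0299 over 18 pairs. With 0 over 0.1 in either kind, the set numbers were not taken to pair the libraries. Whether a weaker pairing exists was not tested. The block and voom were not run for the comparisons with cells, which have 1 library and no set number. With the length of the principal transcript in place of all exons, chosen after seeing the data, the CCT6A share was 10.3% in 2.8K EVs, 17.4% in 10K EVs and 32.8% in 100K EVs. The smallest fold called for a member between pellets was 1.53, and errors against the 1 cell library are larger.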

Other observations

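The long noncoding RNA catalogue in the count table holds entries named after the nearest gene, and those named after TCP1 were looked at after their values were seen. The entry lnc-TCP1-4 had 0, 2.93 and 0 CPM in 2.8K EVs, 25.5, 13.9 and 14.9 CPM in 10K EVs and 66.9, 34.5 and 50.2 CPM in 100K EVs, against 0 in cells. The entry lnc-TCP1-3 had 32.7, 21.3 and 25.5 CPM in 100K EVs, against 1.32 CPM or less in 2.8K EVs and 0.115 CPM in cells. For lnc-TCP1-2 the values were 38.5, 38.4 and 35.1 CPM in 100K EVs, against 4.88 CPM or less in 2.8K EVs and 4.36 CPM in cells. In edgeR the adjusted p-values of 100K EVs against 2.8K EVs were 0.00115 for lnc-TCP1-4, 0.000348 for lnc-TCP1-3 and 0.000547 for lnc-TCP1-2, each with 3 of 3 100K EV libraries above all 2.8K EV libraries. Positions of these entries were not used here, and whether they share reads with TCP1 was not tested.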
